A study of Mus musculus with 32 samples.

Results

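In control HoxB8 cells, H3K27me3 marked 2705 short stretches of the autosomes in which neither control library had an H2AK119ub peak. They were taken from 15857 regions made by merging the H3K27me3 peaks of both control libraries. A member was kept if it was under 5 kb wide, overlapped an H3K27me3 peak in both control libraries and overlapped no H2AK119ub peak in either. Of the other merged regions, 3498 were as short and as reproducible but shared H2AK119ub, 1096 were 5 kb or wider, 8270 had an H3K27me3 peak in 1 control library, and 288 lay on sex chromosomes. Because the members were chosen by the control libraries' own H3K27me3 and H2AK119ub peaks, every control value of H3K27me3 and H2AK119ub below is a description and was not tested.

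The cells were HoxB8 cells, bone-marrow cells of the mouse held as growing myeloid progenitors by an estrogen-dependent HoxB8, from which estrogen had been removed 48 h before collection, in all genotypes alike. Each of H3K27me3, H2AK119ub and H3K4me1 was mapped by CUT&Tag, in which an antibody-tethered transposase cuts DNA next to a mark, in 10 libraries. The genotypes were sgRNA Asxl1 B2 with pMICH-CSF3R-T618I (called double, 2 libraries), non-targeting sgRNA with pMICH-CSF3R-T618I (CSF3R, 3 libraries), sgRNA Asxl1 B2 with pMICH-Empty (Asxl1 guide, 3 libraries) and non-targeting sgRNA with pMICH-Empty (control, 2 libraries). T618I is an activating change of the G-CSF receptor, and Asxl1 encodes a partner of the deubiquitinase Bap1. All libraries came from 1 kind of immortalised line, 1 Asxl1 guide and a vector-borne receptor, and the labels do not say whether lines are clones or whether libraries are separate cultures, so p-values measure the spread between libraries, which may be technical. The identity of the cells was checked in control libraries: 9 of 10 myeloid progenitor genes, Mpo, Elane and Cebpe among them, carried H3K4me1 and none carried H3K27me3. H3K4me1 was also carried by 3 of 4 monocyte genes (Irf8, Ly6c2 and Csf1r), whereas 0 of 4 T cell genes, 1 of 4 B cell genes and 1 of 4 erythroid genes carried H3K4me1.

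Polycomb silencing rests on a pair of complexes. PRC2 places H3K27me3, and PRC1 places H2AK119ub, which PRC2 can bind, while CBX subunits of PRC1 bind H3K27me3, so that the marks usually lie together over the CpG-rich promoters of silent developmental genes. Bap1 with an Asxl partner removes ubiquitin from H2AK119. H3K4me1 marks enhancers and the flanks of promoters. Some H3K27me3 is laid down away from such promoters, in thin stretches with little PRC1 signal.

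Where a member covered a start site, its promoter can be read. Of 348 members that did, 13 had H2AK119ub that passed the test between double and CSF3R libraries described further on. The promoters of 7 of these regions are shown, 5 with more H2AK119ub in double libraries (Rusc2, Abca5, Scnn1b, Camsap2 and Brinp3) and 2 with less (Gm11992 and Itga1), because their numbers of CG differ widely. They were chosen after their values were seen. Each runs from 250 bases before the start site to 50 bases after it on the gene's own strand, as RefSeq gives it for GRCm38.p6, and capitals mark CG.
Rusc2 (chr4:43381819-43382118, plus strand): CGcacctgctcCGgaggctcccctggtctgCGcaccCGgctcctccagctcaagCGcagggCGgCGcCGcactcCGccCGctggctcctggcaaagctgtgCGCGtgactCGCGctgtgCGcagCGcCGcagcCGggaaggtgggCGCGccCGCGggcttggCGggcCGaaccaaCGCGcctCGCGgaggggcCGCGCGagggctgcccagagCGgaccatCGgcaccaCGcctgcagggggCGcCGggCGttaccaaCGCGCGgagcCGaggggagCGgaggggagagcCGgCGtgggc
Abca5 (chr11:110337667-110337966, minus strand): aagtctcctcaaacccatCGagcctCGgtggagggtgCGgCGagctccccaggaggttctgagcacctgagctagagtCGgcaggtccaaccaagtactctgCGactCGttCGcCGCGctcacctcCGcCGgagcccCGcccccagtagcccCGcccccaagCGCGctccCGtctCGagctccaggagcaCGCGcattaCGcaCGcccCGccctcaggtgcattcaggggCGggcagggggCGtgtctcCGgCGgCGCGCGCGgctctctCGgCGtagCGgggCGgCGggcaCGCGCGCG
Camsap2 (chr1:136346055-136346354, minus strand): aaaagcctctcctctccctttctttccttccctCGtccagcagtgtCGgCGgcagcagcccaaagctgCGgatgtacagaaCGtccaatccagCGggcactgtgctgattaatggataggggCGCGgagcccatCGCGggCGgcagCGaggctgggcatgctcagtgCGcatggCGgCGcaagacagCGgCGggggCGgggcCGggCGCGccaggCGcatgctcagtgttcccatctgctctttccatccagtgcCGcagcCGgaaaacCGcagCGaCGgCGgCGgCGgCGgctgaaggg
Brinp3 (chr1:146497437-146497736, plus strand): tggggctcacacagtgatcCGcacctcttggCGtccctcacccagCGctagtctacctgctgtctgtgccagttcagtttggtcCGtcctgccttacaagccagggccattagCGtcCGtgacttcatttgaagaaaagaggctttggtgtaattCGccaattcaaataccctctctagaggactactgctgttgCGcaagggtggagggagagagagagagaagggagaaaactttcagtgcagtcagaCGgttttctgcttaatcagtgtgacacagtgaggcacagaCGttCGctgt
Scnn1b (chr7:121864788-121865087, plus strand): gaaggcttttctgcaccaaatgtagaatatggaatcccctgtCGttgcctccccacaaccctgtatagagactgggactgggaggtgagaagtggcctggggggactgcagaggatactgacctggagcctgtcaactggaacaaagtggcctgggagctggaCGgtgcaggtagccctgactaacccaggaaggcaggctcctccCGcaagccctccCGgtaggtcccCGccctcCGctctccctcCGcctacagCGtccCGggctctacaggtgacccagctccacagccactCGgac
Gm11992 (chr11:9048342-9048641, plus strand): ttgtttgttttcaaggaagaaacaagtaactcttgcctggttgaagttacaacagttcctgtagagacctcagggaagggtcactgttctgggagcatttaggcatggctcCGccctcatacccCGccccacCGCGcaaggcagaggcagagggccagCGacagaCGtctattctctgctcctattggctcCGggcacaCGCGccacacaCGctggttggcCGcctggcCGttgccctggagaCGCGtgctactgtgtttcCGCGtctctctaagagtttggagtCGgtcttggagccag
Itga1 (chr13:115101915-115102214, minus strand): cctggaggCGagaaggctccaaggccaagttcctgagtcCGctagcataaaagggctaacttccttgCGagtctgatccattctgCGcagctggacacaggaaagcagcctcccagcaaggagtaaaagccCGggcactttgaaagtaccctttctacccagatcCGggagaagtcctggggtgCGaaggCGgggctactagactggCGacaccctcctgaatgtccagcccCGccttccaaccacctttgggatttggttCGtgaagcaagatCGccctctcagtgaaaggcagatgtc

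Rusc2, which encodes a RUN and SH3 domain protein, had 44 CG in its 300 bases, Abca5, an ATP-binding cassette transporter, had 40, and Camsap2, which binds the minus ends of microtubules, had 31. Brinp3, a neural gene induced by BMP and retinoic acid, had 11 CG, Scnn1b, a subunit of the epithelial sodium channel, had 10, the predicted gene Gm11992 had 17, and Itga1, an integrin subunit, had 12. The printed promoters of regions called in the same direction, with more H2AK119ub, held between 10 and 44 CG, a range set by how they were chosen. A second listed Rusc2 promoter in the same region had 35 CG. Over all 400 listed promoters that members covered, the median was 17 CG (quartiles 10 and 27), against 20 in 1131 promoters of short regions sharing H2AK119ub, 22 in 714 promoters of wide regions and 14 in all 20062 listed autosomal promoters. At least 15 CG stood in 58.8% of the members' promoters, against 69.6% in the sharing regions, 73.4% in the wide regions and 48.1% of all. In 229 promoters of regions with an H3K27me3 peak in 1 control library the median was 15 and the share 50.7%. By these medians the starts covered by members were more CpG-dense than those and than promoters in general, and less so than those of the sharing and wide regions. A class of promoters is described here by its counts, with no test.

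**Figure D1:**
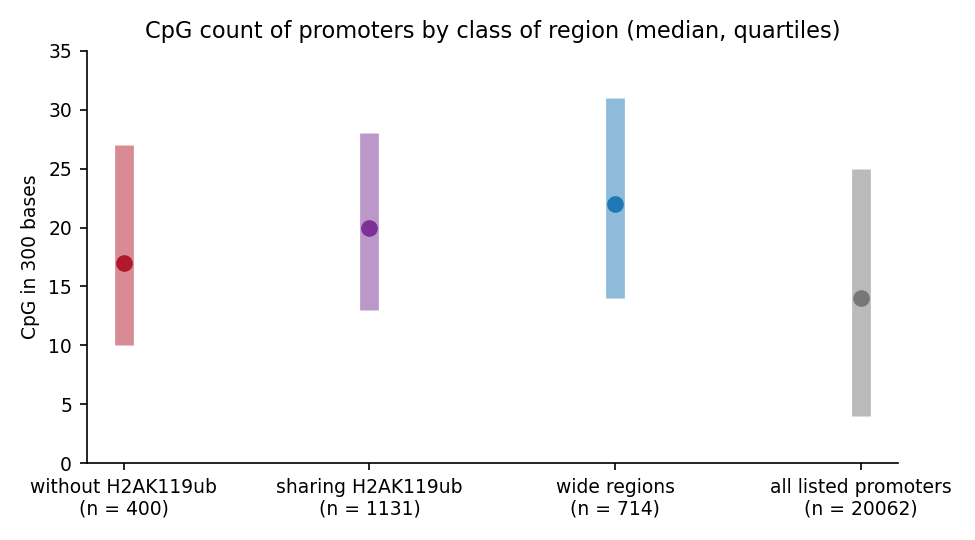
Number of CG in the 300 bases around listed start sites covered by each class of control H3K27me3 region, and in all listed autosomal promoters; points are medians and bars run between quartiles. The median of regions without H2AK119ub, 17, lies between 14 for all promoters and 20 and 22 for the other classes.

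Most members lay away from promoters, as did most merged regions. Their widths ran between 200 and 4950 bp with a median of 1050 bp, against 2100 bp for short regions sharing H2AK119ub. Of the 2063 members whose gene has a listed start site, 16.8% covered one, against 37.5% of the sharing regions and 71.9% of the wide ones. The median distance to a listed start was 12.2 kb for members, 10.8 kb for all merged regions and 2.86 kb for sharing regions. Gene bodies held 54.5% of members, against 58.8% of all merged, 72.5% of sharing and 88.9% of wide regions. The median distance to the nearest control H2AK119ub peak, which no member overlaps by the rule, was 18.9 kb, and 728 members lay within 5 kb of one. The median distance to the nearest control H3K4me1 peak was 98.9 kb. It was 72.5 kb for all merged, 61.1 kb for sharing and 66.95 kb for wide regions, so every class lay far from H3K4me1. Of the members, 54.5% lay within 5 kb of another merged H3K27me3 region, against 57.9% of all merged and 63.5% of sharing regions. Some members formed strings: 13 lay within 195 kb of the Hoxc cluster, which holds body-plan homeobox genes, 11 within 187 kb around Pax2, a kidney and eye regulator, and 11 within 107 kb around Uncx, a homeobox gene of the vertebral column. A peak of the pooled IgG background list overlapped 8.91% of members and 15.2% of sharing regions.

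The libraries themselves differed in ways that touch every result. The H3K27me3 peaks of double libraries covered 19.2 and 14.2 Mb, those of CSF3R libraries 31.3, 34.1 and 42.2 Mb, those of Asxl1 guide libraries 4.73, 53.0 and 12.4 Mb, and those of control libraries 15.9 and 22.7 Mb. Asxl1 guide replicate 2 stood apart, and Asxl1 guide values are given for each library where it decides them. Sequencing depth is unknown, and longer peak lists can come from deeper libraries.

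Chromosome 1 also set the guide-carrying libraries apart. Of all H3K27me3 covered length, 14.5 and 11.7% lay on chromosome 1 in double libraries, 5.79, 5.70 and 5.75% in CSF3R libraries, 14.7, 13.2 and 12.6% in Asxl1 guide libraries and 6.01 and 6.18% in control libraries. For H2AK119ub the shares were 11.8 and 11.7% in double, 5.13 to 5.49% in CSF3R, 11.1 to 12.2% in Asxl1 guide and 5.41 and 5.72% in control libraries. For H3K4me1 they were 9.30 and 9.11% in double, 6.28 to 6.75% in CSF3R, 8.09 to 8.52% in Asxl1 guide and 6.49 and 6.58% in control libraries. For each mark, all 5 libraries with the Asxl1 guide lay above all 5 without it. The cause was not tested. The 162 members on chromosome 1 are therefore given apart where they differ.

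**Figure D2:**
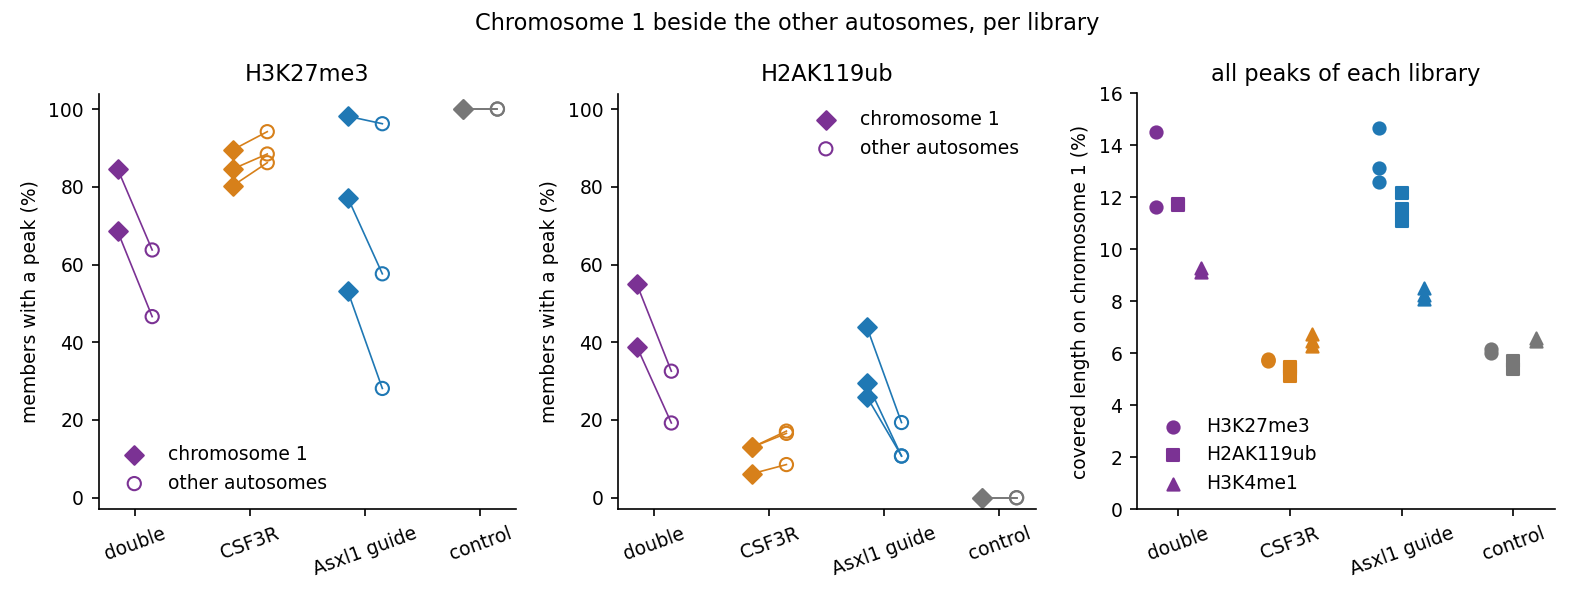
Members with a peak of H3K27me3 (left) or H2AK119ub (middle) on chromosome 1 and on the other autosomes, and the share of each library's covered length on chromosome 1 (right); each point is 1 library, by genotype. In the right panel libraries with the Asxl1 guide lie above those without it for every mark.

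H3K27me3 was less often found again in double libraries than in CSF3R libraries at these regions. A peak overlapped 65.0 and 47.9% of the 2705 members in double libraries, 85.8, 88.2 and 93.9% in CSF3R libraries, and 29.6, 96.3 and 58.8% in Asxl1 guide libraries, against 100% in both control libraries by the rule. The means were 56.5 ± 12.1% in double (SD, n = 2), 89.3 ± 4.1% in CSF3R (SD, n = 3) and 61.6 ± 33.5% in Asxl1 guide libraries (SD, n = 3). Every double library lay below every CSF3R library, and the Asxl1 guide libraries spanned both. Without Asxl1 guide replicate 2, the other Asxl1 guide libraries were 1 below and 1 between the double libraries. These shares were not tested, and a mark carried by fewer cells cannot be told apart from a weaker mark in each cell. The covered part of the members' length was 41.2 and 22.0% in double, 75 to 85.7% in CSF3R, 11.9, 85.5 and 33.6% in Asxl1 guide, and 62.3 and 87.2% in control libraries. Short regions sharing H2AK119ub kept an H3K27me3 peak more often, in 84.2 and 79.5% for double libraries, 96.5 to 99% for CSF3R libraries, and 55.3, 97.9 and 80.0% for Asxl1 guide libraries. In each of these 8 libraries the share was lower for members than for sharing regions.

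**Figure D3:**
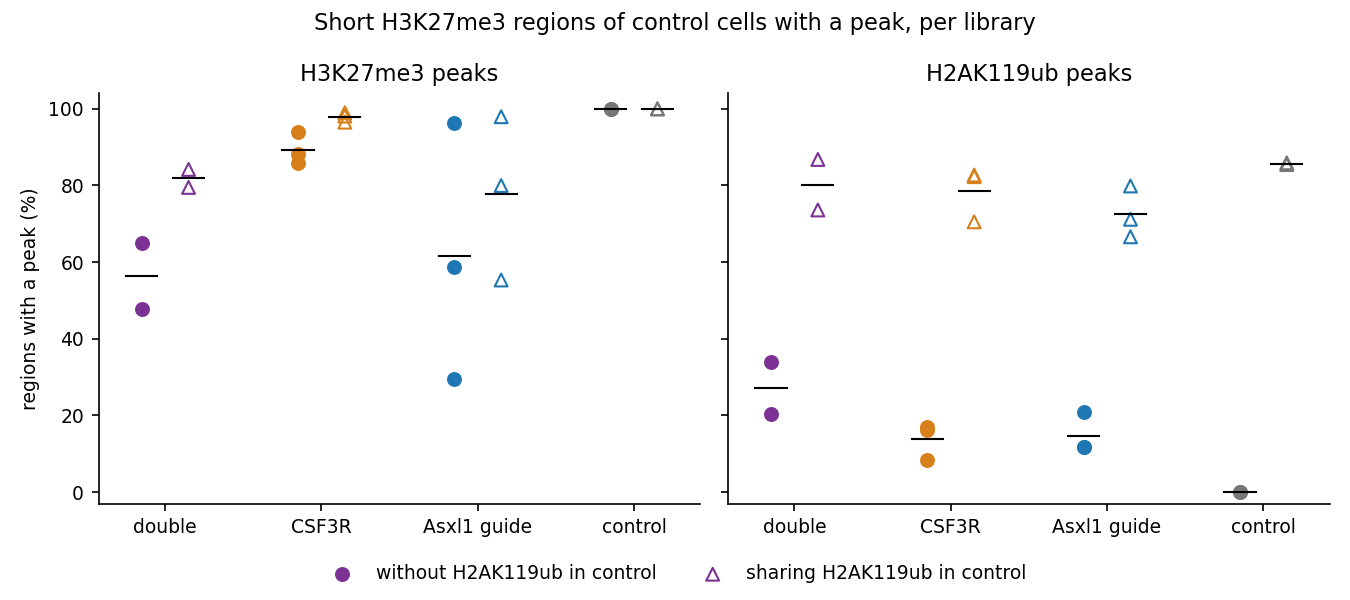
Share of regions with a peak of each mark in each library, for short control H3K27me3 regions without H2AK119ub and for those sharing it; points are libraries, grouped as double, CSF3R, Asxl1 guide and control. Control values of H3K27me3 (100%) and, for the regions without it, of H2AK119ub (0%) are set by how the regions were chosen.

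The share of members with an H3K27me3 peak rose with width. A peak was counted where it overlapped any part of a region. Wider regions thus offer more length to overlap, and the part of this scoring was not tested. In double libraries a peak was found in 40.4 ± 13.4% (SD, n = 2) of the 698 members up to 0.5 kb wide and in 86.5 ± 6.4% (SD, n = 2) of the 189 members of 3 to 5 kb. In CSF3R libraries the same classes gave 77.2 ± 7.8% and 100 ± 0% (SD, n = 3). Sharing regions of matched width remained above members in double libraries, at 61.7% for the narrowest class and 93.9% for the widest. The plot of shares by width shows the 5 classes for each genotype.

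**Figure D4:**
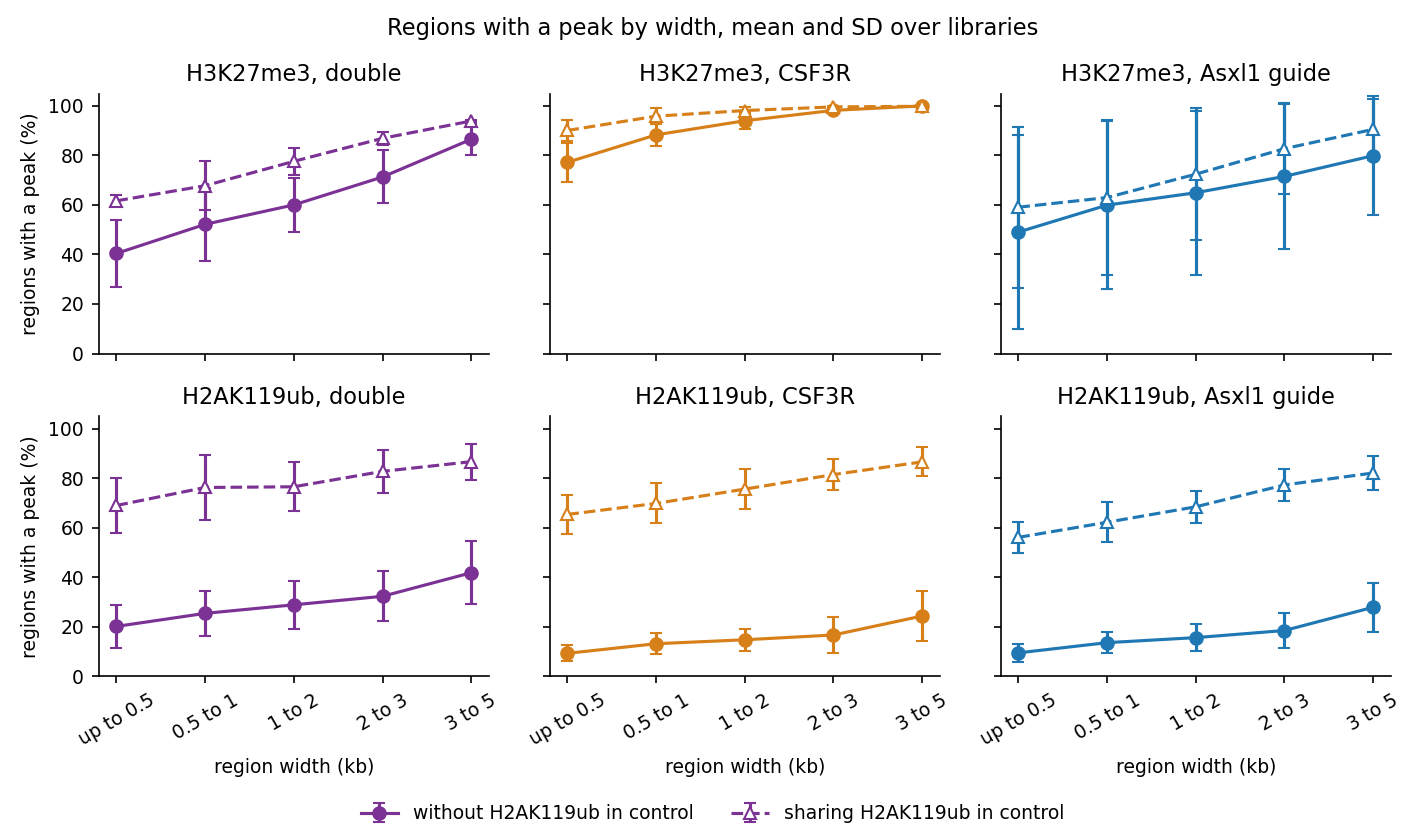
Share of regions with an H3K27me3 (top) or H2AK119ub (bottom) peak against region width in kb, for double, CSF3R and Asxl1 guide libraries; points are means over libraries and bars are SD, for regions without and with control H2AK119ub. In double libraries H3K27me3 was found in 40.4% of the narrowest and 86.5% of the widest members.

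Across libraries, 484 members (17.9%) had H3K27me3 in all 8 libraries outside control, against 49.4% of sharing regions, and 9 had it in none. All 3 CSF3R libraries and neither double library had a peak in 442 members (16.3%; 12.9% of all merged regions), while both double and no CSF3R library had one in 5 (0.185%; 0.46% of all merged regions). Members with a start site had H3K27me3 in 73.1 ± 0.2% in double libraries (SD, n = 2), 97.2 ± 2.1% in CSF3R libraries (SD, n = 3) and 60.5, 99.7 and 86.2% in Asxl1 guide libraries. Members without one gave 52.9 ± 14.1% in double, 87.4 ± 4.5% in CSF3R, and 23.4, 95.7 and 53.4% in Asxl1 guide libraries. The gap between double and CSF3R libraries thus appeared in both kinds of member. Start-site members were wider, with medians of 1950 bp (promoters of 15 or more CG) and 1650 bp (others), against 1050 bp for all members. The part of width in their higher shares was not tested.

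A test for each region was run on the percentage of its length lying in peaks, with limma across all 15119 merged regions that had an H3K27me3 peak in at least 2 libraries and Benjamini-Hochberg adjustment over all of them. All 2705 members qualify by their own rule. Between double and CSF3R libraries 0 members passed an adjusted p of 0.05 (0% of all regions tested). An unadjusted p under 0.05 was found in 718 members, given without the share over all regions and so no result about the members. The median difference was -46.2 percentage points over members and -36.5 over all regions tested. With each library's covered length as a covariate these medians were -20.4 and -13.3 points, and again 0 members passed. Without a test, both double libraries lay below all 3 CSF3R libraries in 1471 members (54.4%, against 44.8% of all regions tested) and above them in 18 (0.665%, against 0.9% of all regions tested). The count of 0 depended on how regions were scored and on libraries that the comparison does not contrast. Scored by any overlap, with all 10 libraries kept, 69 members were lower and 3 higher (0.986% and 0.0331% of all regions tested). With both control libraries left out of the fit, whose values the rule constrains, 115 members were lower in double libraries and 3 higher (5.44% and 0.137% of all regions tested). Leaving out only control replicate 1 gave 113 and 2 (5% and 0.121%), and only control replicate 2 gave 114 and 2 (5.3% and 0.127%). With Asxl1 guide replicate 2 left out they were 340 and 3 (5.9% and 0.0349%), and with all 3 libraries left out 756 and 4 (28.4% and 0.393%). As shares of all members and of all merged regions, lower calls were 4.25% and 4.76% without control libraries, 12.6% and 5.32% without Asxl1 guide replicate 2, and 27.9% and 23.2% without all 3; the difference between members and other regions was not tested. These fits were added after the data were seen.

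Between double and Asxl1 guide libraries 0 members passed for H3K27me3 (0% of all regions tested). An unadjusted p under 0.05 was found in 53 members, again without the share over all regions and no result about the members. The median difference over members was -13.5 points, and 3.33 points without Asxl1 guide replicate 2, so its sign turned with that library. Both double libraries lay below all Asxl1 guide libraries in 120 members (4.44%, against 2.37% of all regions tested) and above them in 12 (0.444%, against 0.939%). With the control libraries and Asxl1 guide replicate 2 left out, 58 members were higher in double libraries and 16 lower (4.07% and 0.355% of all regions tested).

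Single regions show the extremes. The region 4.7 kb from Nrn1, which encodes the neurite-growth protein neuritin (chr13:36720001-36720900), was 0 and 0% covered by H3K27me3 in double libraries, 100% in all 3 CSF3R libraries, 0% in all 3 Asxl1 guide libraries and 100% in both control libraries. The libraries with the guide and those without it did not overlap, and the difference between double and CSF3R libraries was -100 ± 20.9 percentage points (SE; limma, adjusted p = 0.166). An IgG peak covered 27.8% of this region. The opposite pattern appeared 431 kb from Ccnh, which encodes cyclin H (chr13:84758601-84758850), where coverage was 100 and 100% in double, 0% in all CSF3R, 100% in all Asxl1 guide and 100% in both control libraries (difference 100 ± 20.9 points; SE; limma, adjusted p = 0.166). Both passed in the fit without control libraries (limma, adjusted p = 0.00126). Inside Mme, which encodes the peptidase neprilysin (chr3:63295351-63295750), the region was 0% covered in both double libraries, 62.5, 100 and 100% in CSF3R, 100% in all Asxl1 guide and 87.5 and 62.5% in control libraries, so that the double libraries alone lacked the mark (double minus Asxl1 guide -100 ± 23.0 points; SE; limma, adjusted p = 1). Inside the zinc-finger gene Zfp385c (chr11:100643501-100644150), the region was 100 and 84.6% covered in double, 100% in all CSF3R, 0, 46.2 and 0% in Asxl1 guide, and 46.2 and 61.5% in control libraries (double minus Asxl1 guide 76.9 ± 23.7 points; SE; limma, adjusted p = 1).

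Some members kept H3K27me3 everywhere. The 5 with the highest mean coverage outside control lay in Sntg1, a syntrophin, Pard3b, a cell-polarity gene, and Nfasc, the axonal adhesion gene neurofascin, and near Habp2, a plasma protease, and the predicted gene Gm3558; their coverage was between 92.3 and 100% in all 8 libraries outside control. Of these, 3 (Sntg1, Pard3b and Nfasc) lie on chromosome 1. The widest members with no H3K27me3 in any of those libraries lay in Spire1, an actin nucleator (2500 bp), Ccdc122 (1100 bp) and Zmat3, an RNA-binding target of p53 (750 bp). In control libraries their coverage was 60 and 40%, 59.1 and 100%, and 60 and 60%.

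Some members lay at genes of 18 lists, which were assembled with earlier results of these data known. Developmental regulators accounted for 53 members at 37 of 147 listed genes, among them Pax2, Pax6, Otx2, Lhx2 and Sox10. In 42 of the 53, both double libraries lay below all CSF3R libraries for H3K27me3. They did so in 54.4% of all members and 44.8% of all regions tested. The median difference was -51.3 points, against -46.2 over all members and -36.5 over all regions tested. The listed members had a median width of 1250 bp, against 1050 bp for all members, and the list was not tested against other members. At Msx2, a homeobox gene of limb and skull (chr13:53461601-53466350), the region was 60 and 47.4% covered in double, 76.8, 100 and 100% in CSF3R, 9.47, 62.1 and 52.6% in Asxl1 guide, and 73.7 and 86.3% in control libraries, with no overlap of double and CSF3R libraries. At Lmx1b, a homeobox gene of dorsal limb (chr2:33615001-33619350), values were 94.3 and 9.20% in double, 98.9, 100 and 100% in CSF3R, 6.90, 98.9 and 47.1% in Asxl1 guide, and 96.6 and 97.7% in control libraries, and the double libraries differed widely from each other.

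Hox cluster genes held 15 members, 13 of them with both double libraries below all CSF3R libraries. Of all members 54.4% did so, and of all regions tested 44.8%. The median difference at these 15 was -60.0 points, against -46.2 over all members and -36.5 over all regions tested. Their median width was 2000 bp, against 1050 bp for all members, and this list was not tested against other members. Near Hoxb13, a posterior Hox gene (chr11:96199601-96204250), the region was 69.9 and 28.0% covered in double, 100, 97.8 and 94.6% in CSF3R, 0, 67.7 and 0% in Asxl1 guide, and 64.5 and 100% in control libraries. Double and CSF3R libraries did not overlap there, but the difference did not pass the test across all regions.

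Neural and signalling genes made up several other lists. Ion channel and synaptic receptor genes had 33 members, 19 with double below CSF3R libraries (median -51.2 points), axon guidance and cell adhesion genes 26 with 14 below (median -33.1 points), and Wnt, Bmp, Fgf and Hedgehog genes 19 with 9 below (median -28.6 points). With 54.4% of all members and 44.8% of all regions tested below, these counts are near the background and are no result about the lists. At Cacna1a, a neuronal calcium channel (chr8:84556451-84560450), coverage was 47.5 and 12.5% in double, 100% in all CSF3R, 7.5, 61.3 and 8.75% in Asxl1 guide, and 58.8 and 62.5% in control libraries. At Sfrp1, a secreted Wnt inhibitor (chr8:23409101-23413850), it was 16.8 and 22.1% in double, 87.4, 94.7 and 88.4% in CSF3R, 20, 100 and 63.2% in Asxl1 guide, and 61.1 and 100% in control libraries. Both show double libraries below every CSF3R library. At Cdh22, a brain cadherin (chr2:165201151-165205100), the gap was smaller, with 40.5 and 29.1% in double, 45.6, 100 and 45.6% in CSF3R, 5.06, 100 and 10.1% in Asxl1 guide, and 38 and 100% in control libraries.

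Blood genes were few among members. Lymphoid genes had 9 members, 5 of them with double below CSF3R libraries (median -39.4 points), near the 54.4% of all members, including the B cell factor Pax5 (chr4:44662701-44666050), with 0 and 5.97% covered in double, 100% in all CSF3R, 0, 100 and 71.6% in Asxl1 guide, and 86.6 and 100% in control libraries. Ets1, an Ets-family factor of lymphoid cells, held all 3 members of the list of myeloid transcription factors, and Zbtb46, a classical dendritic cell factor, all 5 of the list of monocyte, macrophage and dendritic genes. In Ets1 (chr9:32673201-32675150) coverage was 28.2 and 0% in double, 100% in all CSF3R, 0, 33.3 and 0% in Asxl1 guide, and 87.2 and 51.3% in control libraries. Neutrophil and granule genes had 1 member, in Chil3, a chitinase-like lectin, stem and progenitor genes 1, in Lin28b, and erythroid, megakaryocyte and mast cell genes 0. Zinc-finger Zfp genes had 32 members (19 below, median -55.4 points), imprinted genes 7 (3 below, median -40.7 points), again near the share of 54.4% over all members, olfactory and related receptor genes 5, cytokine signalling genes 4, cell cycle genes 4, ribosomal protein genes 3, and Polycomb and Asxl/Bap1 complex genes 2, at Cbx7, a CBX subunit of PRC1, and Asxl3, a relative of Asxl1.

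H2AK119ub, absent from the members in control libraries by the rule, was found at some of them in every other library. A peak overlapped 33.9 and 20.4% of members in double libraries, 8.39, 16.3 and 16.9% in CSF3R libraries, 11.8, 11.7 and 20.8% in Asxl1 guide libraries, and 0% in both control libraries by the rule. The means were 27.2 ± 9.5% in double (SD, n = 2), 13.9 ± 4.8% in CSF3R (SD, n = 3) and 14.8 ± 5.2% in Asxl1 guide libraries (SD, n = 3). Double replicate 1 was the highest, and double replicate 2 lay just below Asxl1 guide replicate 3. The share of sharing regions with an H2AK119ub peak was 86.8 and 73.6% in double, 70.5 to 82.7% in CSF3R, 66.6 to 79.9% in Asxl1 guide, and 85.9 and 85.4% in control libraries. The H2AK119ub peaks of double libraries covered 39.1 and 22.6 Mb of genome and those of CSF3R libraries 18.8 to 28.7 Mb. Those of Asxl1 guide libraries covered 11.8 to 16.7 Mb, and those of control libraries 21.2 and 19.9 Mb. The part of list length in these shares was not tested, and a fit with covered length as a covariate is given further on.

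The members with a peak varied between libraries. No library outside control had H2AK119ub in 1198 members (44.3%), 1507 had it in at least 1 library outside control, and 10 had it in all 8. Both double and no CSF3R library had it in 136 members (5.03%; 2.98% of all merged regions), and all 3 CSF3R and neither double library in 7 (0.259%; 0.921% of all merged regions). The 65 members under 1 kb from a control H2AK119ub peak had one in 55.4 ± 23.9% in double (SD, n = 2), 32.3 ± 10.1% in CSF3R (SD, n = 3) and 27.2 ± 10.0% in Asxl1 guide libraries (SD, n = 3). At 50 kb or more from any, the 935 members had one in 25.1 ± 5.4%, 12.3 ± 4.7% and 17.4 ± 5.2% in the same genotypes. H2AK119ub was thus found far from control H2AK119ub too. In the widest class, 3 to 5 kb, the shares were 41.8 ± 12.7% in double (SD, n = 2), 24.3 ± 9.9% in CSF3R (SD, n = 3) and 27.9 ± 9.8% in Asxl1 guide libraries (SD, n = 3). Up to 0.5 kb they were 20.1 ± 8.6%, 9.26 ± 3.20% and 9.46 ± 3.62%. Any overlap was counted here too, so a wider region offers more length to a peak.

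The marks overlapped within genotypes. The 372 members with H2AK119ub in both double libraries had H3K27me3 in 80.4 ± 10.3% in double libraries (SD, n = 2), against 44.8 ± 12.5% for the 1608 members with H2AK119ub in neither. In CSF3R libraries the 80 members with H2AK119ub in all 3 had H3K27me3 in 97.5 ± 3.3% (SD, n = 3) and the 1933 with none in 86.8 ± 4.8%. The members with H2AK119ub were wider, with a median of 1350 bp against 900 bp in double libraries. H2AK119ub and H3K27me3 stood together in both double libraries at 256 members (9.46%, against 24.7% of all merged regions). H2AK119ub in both with H3K27me3 in neither was found at 30 (1.11%, against 3.31% of all merged regions). Chromosome 1, where members had both marks more often in double libraries, was not set apart in these counts. By promoter, H2AK119ub overlapped 36.0 ± 4.9% in double (SD, n = 2), 21.9 ± 10.2% in CSF3R (SD, n = 3) and 27.9 ± 8.1% in Asxl1 guide libraries (SD, n = 3) of the 215 start-site members whose promoter holds 15 or more CG. Of the other 133 it overlapped 28.9 ± 12.2%, 17.0 ± 5.8% and 21.6 ± 10.0%. The median widths were 1950 bp for the 215 and 1650 bp for the 133, and the part of width was not tested.

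The same limma test on H2AK119ub covered 8232 merged regions with a peak in at least 2 of the 10 libraries, which left 1755 members untested. This fit includes both control libraries, whose 0% at members is set by the rule and enters the spread behind each adjusted p. Between double and CSF3R libraries, 71 of the 950 members tested were higher in double libraries and 4 lower (3.56% and 0.96% of all regions tested). Set against all regions without the filter, the 71 are 2.62% of members and the calls over the whole set 1.85% of merged regions. The members' share lay above that of all regions on either basis, but the difference was not tested and is not a result about them. With both control libraries left out, a fit added after the data were seen, 63 members were higher and 4 lower (2% and 0.574% of all merged regions). Testing every region instead, with all 10 libraries, gave 65 and 4 (1.54% and 0.353% of all merged regions). Without double replicate 1 the total was 37 and without double replicate 2 it was 118, and of the 71 members 21 and 25 passed again in these fits. Between double and Asxl1 guide libraries 61 members were higher and 2 lower (3.41% and 0.146% of all regions tested). Without both control libraries these were 55 and 1 (1.97% and 0.114% of all merged regions). With all 10 libraries and each library's covered length as a covariate, 21 were higher and 1 lower, and all 21 were among the 61. Against Asxl1 guide libraries the total was 27 without double replicate 1 and 106 without double replicate 2, with 14 and 17 of the 61 passing again. The totals with a double library left out show how the calls moved and are no result about the members. The few lower calls moved as well, to 21 without CSF3R replicate 1 and 9 without CSF3R replicate 2 in the first comparison, and to 8, 7 and 5 without Asxl1 guide replicate 1, 2 and 3 in the second. Both comparisons share the double libraries, and 56 members were higher in both (78.9% of the 71 and 91.8% of the 61). Without regard to a test, both double libraries lay above all CSF3R libraries in 227 of the 950 members tested and below them in 9. Over all 8232 regions tested the shares were 15.4% and 6.07%. Both lay above all Asxl1 guide libraries in 190 of the 950 and below them in 15, against 19.3% and 2.89% of all regions tested. These counts are given as a description.

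**Figure D5:**
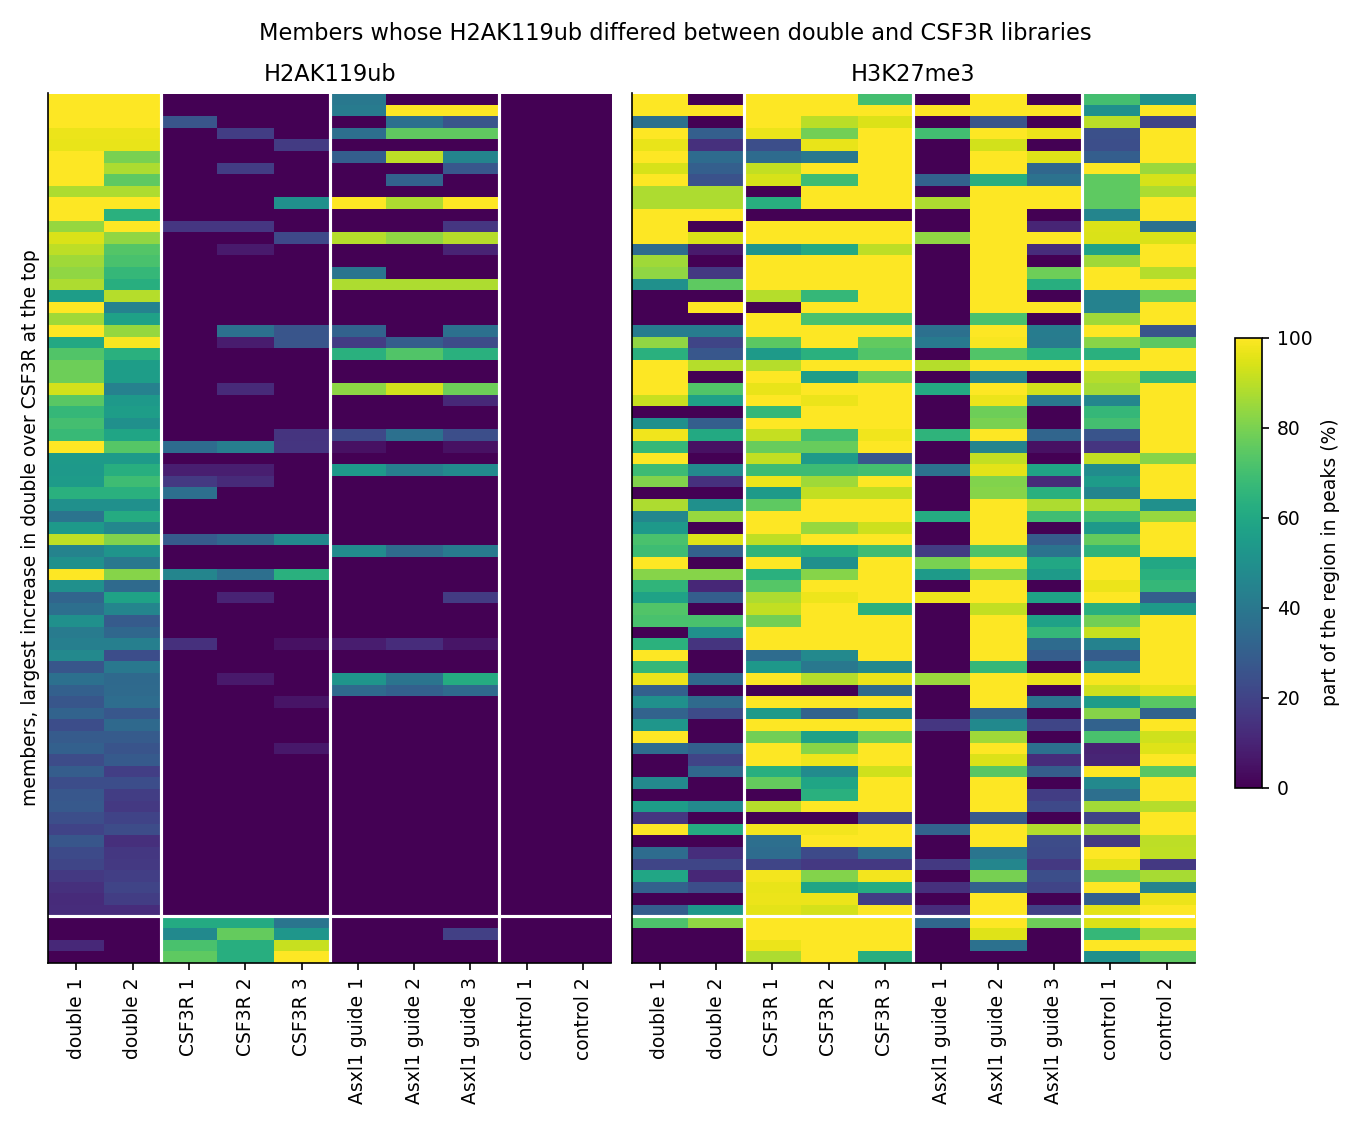
Percentage of each region lying in H2AK119ub (left) or H3K27me3 (right) peaks in every library, for the 75 members whose H2AK119ub differed between double and CSF3R libraries; columns are libraries and lines are members, ordered by the difference, with the largest increase in double libraries at the top. The 71 members with more H2AK119ub in double libraries stand above the 4 with less.

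Of the 71 members, 48 had no H2AK119ub peak in any CSF3R library and 45 none in any Asxl1 guide library. All 71, and all 61 higher than in Asxl1 guide libraries, had a peak in both double libraries. The double libraries, where these members are high, thus met the filter on peaks by themselves. With no filter, 65 members were higher than in CSF3R and 58 higher than in Asxl1 guide libraries (1.54% and 1.41% of all merged regions). H3K27me3 peaks were present in both double libraries in 44 of the 71, in neither in 7, and in all 3 CSF3R libraries in 65. The 71 lay at 68 genes, 11 covered a start site and 4 overlapped an IgG peak. Chromosome 1 held 15 of them (21.1%), against 5.99% of all members, and 7 of the 11 with a start site. In 10 of those 15, H2AK119ub was also present in all 3 Asxl1 guide libraries, against 5 of the other 56. Refitted without chromosome 1, 55 members were higher and 4 lower (2.75% and 0.984% of the regions tested there). Of the 61 members higher than in Asxl1 guide libraries 4 lay on chromosome 1, and a fit without it again called 56 of the 61 higher and 2 members lower (3.23% and 0.157% of the regions tested there).

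The largest increases over CSF3R libraries were in Tox2, Sntg1 and Tcf7l2. In Tox2, an HMG-box factor of the Tox family (chr2:163286901-163287400), H2AK119ub covered 100 and 100% in double, 0% in all CSF3R, 40, 0 and 0% in Asxl1 guide, and 0% in both control libraries. The difference from CSF3R libraries was 100 ± 11.6 points (SE; limma, adjusted p = 0.00335), and H3K27me3 covered 100 and 0% of the region in double libraries. A second Tox2 member, of 3550 bp (chr2:163234301-163237850), had 90.1 and 73.2% in double, 0, 7.04 and 0% in CSF3R, and 0, 0 and 9.86% in Asxl1 guide libraries. In Sntg1 (chr1:9299451-9300050) H2AK119ub covered 100 and 100% in double, 0% in all CSF3R, and 41.7, 100 and 100% in Asxl1 guide libraries, so that the guide-carrying libraries stood together (double minus CSF3R 100 ± 16.8 points; SE; limma, adjusted p = 0.0184). This region is on chromosome 1, and its call was lost without any 1 of the double or CSF3R libraries, with adjusted p up to 0.106. In Tcf7l2, a TCF/LEF factor of Wnt signalling (chr19:55773101-55774050), values were 100 and 100% in double, 26.3, 0 and 0% in CSF3R, and 0, 36.8 and 26.3% in Asxl1 guide libraries (double minus CSF3R 91.2 ± 12.2 points; SE; limma, adjusted p = 0.00664). H3K27me3 there covered 36.8 and 0% in double and 100, 89.5 and 94.7% in CSF3R libraries. The Tcf7l2 call was lost without double replicate 1.

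Over Asxl1 guide libraries the largest increases were near Adrb1 and Ahsg and in Grb10. Near Adrb1, the beta-1 adrenergic receptor gene (chr19:56734101-56735550), H2AK119ub covered 96.6 and 96.6% in double, 0, 0 and 17.2% in CSF3R, and 0% in all Asxl1 guide libraries. This was 96.6 ± 5.4 points above Asxl1 guide libraries (SE; limma, adjusted p = 6.75e-05), and 90.8 above CSF3R libraries. Near Ahsg, which encodes the plasma protein fetuin-A (chr16:22891151-22891700), values were 100 and 81.8% in double, 45.5, 36.4 and 63.6% in CSF3R, and 0% in all Asxl1 guide libraries (double minus Asxl1 guide 90.9 ± 8.5 points; SE; limma, adjusted p = 0.00119). The double libraries lay above the CSF3R libraries, which lay above the Asxl1 guide libraries; the covered-length covariate ended the call against Asxl1 guide libraries. In Grb10, an imprinted gene for an adaptor that restrains insulin signalling (chr11:12031501-12032900), values were 96.4 and 100% in double, 85.7, 89.3 and 96.4% in CSF3R, 25, 0 and 0% in Asxl1 guide, and 0% in both control libraries. All 5 libraries with CSF3R T618I thus lay above the others (double minus Asxl1 guide 89.9 ± 8.0 points; SE; limma, adjusted p = 0.000913; double minus CSF3R 7.74 ± 7.99 points, adjusted p = 0.724).

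The 4 members with less H2AK119ub in double than in CSF3R libraries lay near Spint2, at Gm11992, near Dynlt1a and at Itga1. In all 4 every CSF3R library had a peak, so these libraries met the filter on peaks by themselves. Near Spint2 no other library had one. With no filter, 4 members were lower (0.353% of all merged regions). Near Spint2, a serine protease inhibitor (chr7:29284951-29285350), H2AK119ub covered 0 and 0% in double, 75, 62.5 and 100% in CSF3R, and 0% in all Asxl1 guide and control libraries (-79.2 ± 9.7 points; SE; limma, adjusted p = 0.00432). At the start of Gm11992, which also covers that of Sun3, a nuclear-envelope protein of the testis (chr11:9048401-9050150), it covered 11.4 and 0% in double, 71.4, 62.9 and 91.4% in CSF3R, and 0% in all Asxl1 guide libraries (-69.5 ± 8.1 points; SE; limma, adjusted p = 0.00337). Near Dynlt1a, a dynein light chain (chr17:6320301-6321350), values were 0 and 0% in double, 47.6, 76.2 and 52.4% in CSF3R, and 0, 0 and 19% in Asxl1 guide libraries (-58.7 ± 9.6 points; SE; limma, adjusted p = 0.0168), and without either double library the call was lost. In these 3 regions H3K27me3 was absent from both double libraries and covered at least 62.5% in every CSF3R library. The region at Itga1, whose promoter is printed above, differed: H2AK119ub covered 0 and 0% in double and 61.1, 61.1 and 38.9% in CSF3R libraries, whereas H3K27me3 covered 72.2 and 83.3% in double and 100% in all CSF3R libraries. Scoring only whether a peak overlapped a region, in place of the part covered, ended the calls of Tox2 (chr2:163286901-163287400), Tcf7l2, Adrb1, Grb10, Gm11992 and Dynlt1a, with limma adjusted p between 0.203 and 0.9.

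Of the other promoters printed above, that of Rusc2 lay in a region (chr4:43381301-43383050) with H2AK119ub over 74.3 and 54.3% in double, 0% in all CSF3R, and 0, 0 and 11.4% in Asxl1 guide libraries. The Camsap2 region (chr1:136345101-136349650) had 60.4 and 98.9% in double, 0, 7.69 and 26.4% in CSF3R, and 17.6, 29.7 and 23.1% in Asxl1 guide libraries. The Brinp3 region (chr1:146496651-146498950) had 67.4 and 58.7% in double, 0, 0 and 15.2% in CSF3R, and 21.7, 37.0 and 23.9% in Asxl1 guide libraries. In the chromosome 1 regions the Asxl1 guide libraries all carried some H2AK119ub, which at Rusc2 only 1 did. The Abca5 and Scnn1b regions had less, 30.6 and 25.8% and 16.7 and 18.5% in double libraries, against 6.45% at most in CSF3R and 0% in Asxl1 guide libraries.

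The 2 members lower than in Asxl1 guide libraries lay outside genes. Near Gm52008 (chr12:107083951-107084300) H2AK119ub covered 0% in both double and all CSF3R libraries and 71.4, 85.7 and 100% in Asxl1 guide libraries, and H3K27me3 was 0% in all double and CSF3R libraries too (double minus Asxl1 guide -85.7 ± 7.4 points; SE; limma, adjusted p = 0.000787). This region passed the filter through the Asxl1 guide libraries alone, and its limma adjusted p was 0.00209 with no filter. Near Ccdc25 (chr14:65874851-65875400) it covered 0 and 0% in double, 0, 36.4 and 0% in CSF3R, and 54.5, 72.7 and 90.9% in Asxl1 guide libraries (-72.7 ± 13.9 points; SE; limma, adjusted p = 0.0385). That call did not hold in 13 alternatives, and its adjusted p reached 0.203 when double replicate 1 was left out.

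By list, 2 of 33 ion channel members were higher in double than in CSF3R libraries, both in Scn8a, a neuronal sodium channel, and 1 of 53 developmental regulators, in Tfap2b, an AP-2 factor on chromosome 1. Of all members, tested or not, 2.62% were called higher, against 1.85% of all merged regions. These list counts are too few to be read as a result about the lists. The same 3 were higher than in Asxl1 guide libraries. In Tfap2b (chr1:19236351-19236850) H2AK119ub covered 50 and 40% in double and 0% in all CSF3R and Asxl1 guide libraries. This region passed the filter on peaks through the double libraries alone, where it is high. No member of the Hox, Wnt, axon guidance, lymphoid or Zfp lists passed in either direction. H2AK119ub in both double libraries was present at 2 of 15 Hox members, 5 of 53 developmental members and 5 of 33 ion channel members, and no library outside control had it at 26 of the 53 developmental members.

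Of the 10 members with H2AK119ub in all 8 libraries outside control, the 3 with the highest mean coverage were near Tut4, a terminal uridylyl transferase, in Ptprg, a receptor tyrosine phosphatase, and near Bms1, a ribosome biogenesis factor. Near Tut4 (chr4:108443451-108443800) it covered 100 and 100% in double, 57.1, 100 and 57.1% in CSF3R, and 71.4, 71.4 and 100% in Asxl1 guide libraries, against 0% in both control libraries. The nearest control H2AK119ub peak was 1.25 kb from this region, 1.9 kb from that in Ptprg and 1.8 kb from that near Bms1. None of the 3 differed between double and CSF3R libraries by the test, with adjusted p between 0.302 and 0.491.

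Members on chromosome 1 had both marks more often in guide-carrying libraries. H3K27me3 overlapped 84.6 and 68.5% of the 162 in double libraries, against 63.7 and 46.6% of the 2543 members elsewhere, and 53.1, 98.1 and 77.2% in Asxl1 guide libraries, against 28.1, 96.2 and 57.6% elsewhere. In CSF3R libraries the order was the other way, with 80.2, 84.6 and 89.5% on chromosome 1 and 86.2 to 94.2% elsewhere. H2AK119ub overlapped 54.9 and 38.9% of chromosome 1 members in double, 6.17, 13 and 13% in CSF3R, and 29.6, 25.9 and 43.8% in Asxl1 guide libraries, against 25.9 ± 9.4%, 14.1 ± 4.8% and 13.6 ± 5.0% elsewhere. Both double libraries lay below all CSF3R libraries for H3K27me3 in 31 of the 162 members (19.1%) and in 1440 of the 2543 others (56.6%). Outside chromosome 1 the double libraries had H3K27me3 in 55.2 ± 12.1% of members (SD, n = 2), against 89.6 ± 4.1% in CSF3R libraries (SD, n = 3), so the difference was as large without that chromosome.

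H3K4me1 was all but missing from the members. A peak overlapped 7 and 3 of the 2705 in double, 3, 4 and 4 in CSF3R, 1, 1 and 0 in Asxl1 guide, and 3 and 3 in control libraries, and 15 members had one in at least 1 of the 10 libraries (0.555%, against 3.23% of sharing regions). The test covered 216 merged regions, 6 of them members, and 2 members passed in any comparison. In Rassf5, a Ras-association gene of lymphocyte adhesion (chr1:131236101-131237000), H3K4me1 covered 0% in all double, CSF3R and Asxl1 guide libraries and 55.6 and 38.9% in control libraries. It was 47.2 points lower in each of the other genotypes (SE 4.6, 4.2 and 4.2; limma, adjusted p = 0.000265 in double, 0.000164 in CSF3R and 0.00115 in Asxl1 guide libraries). The share of all regions tested that was lower than in control was 4.17% for double, 2.78% for CSF3R and 2.78% for Asxl1 guide libraries. The interaction of the guide and the receptor passed in this member alone (8.8% of all regions tested were above 0 and 6.94% below). It entered the test through the control libraries alone, where it is high, and every other library is at 0%, so that the interaction repeats the control value. With no filter on peaks the 3 differences from control also passed, with limma adjusted p of 3.38e-05 in double, 1.38e-05 in CSF3R and 0.000106 in Asxl1 guide libraries. The region lies on chromosome 1 and could not be tested with a control library left out, since only 1 library with a peak then remained. H2AK119ub covered 100 and 88.9% of it in double, 0, 88.9 and 0% in CSF3R, and 0, 16.7 and 0% in Asxl1 guide libraries.

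In Mpzl3, an immunoglobulin-domain gene (chr9:45059151-45060300), H3K4me1 covered 65.2 and 0% in double, 78.3, 82.6 and 78.3% in CSF3R, and 0% in all Asxl1 guide and control libraries. CSF3R libraries were 79.7 ± 16.4 points above control (SE; limma, adjusted p = 0.0131; 17.6% of all regions tested were higher), and leaving out either control library ended the call. The 2 double libraries disagreed. H3K27me3 covered 0% in both double, 100% in all CSF3R, 0, 100 and 0% in Asxl1 guide, and 43.5 and 69.6% in control libraries, so in CSF3R libraries the region carried both marks. In Ets1 (chr9:32708351-32710050) H3K4me1 covered 0% in both double and all CSF3R libraries, 32.4, 14.7 and 0% in Asxl1 guide and 29.4 and 20.6% in control libraries, and no comparison passed. For double against CSF3R libraries 0 members passed (7.87% of all regions tested were higher and 7.87% lower), with 2 at an unadjusted p under 0.05. For double against Asxl1 guide libraries 0 passed (22.7% and 1.39%), with 0 at an unadjusted p under 0.05. These unadjusted counts are no result about the members.

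The width limit cuts through a continuous range. The widest members were 4950 bp, in Zfp541, a zinc-finger gene of the testis, at Ptpn14, a phosphatase of Hippo signalling, and at Dmrt2, a somite regulator. The shortest regions that met every other criterion but the width were 5000 bp near Nkx2-1, a lung and thyroid factor, and 5200 bp in Bcas1 and at Myh14, a non-muscle myosin. H3K27me3 covered 39.4 and 47.5% at Dmrt2 in double libraries and 100, 91.9 and 100% in CSF3R libraries. Near Nkx2-1 it covered 52 and 29% in double and 68, 100 and 100% in CSF3R libraries. Only 23 regions of 5 kb or more lacked control H2AK119ub in this way.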

How the data were processed

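The authors deposited peak positions for each library, which are the only values used here, and no score, count or signal was read. Per the submitters' processing notes, Bowtie2 2.4.1, deepTools 3.5 and the mm10 build were used. No source used here names the peak caller, and depth is unknown. Peaks were at least 200 bp wide, in steps of 50 bp. The IgG list is pooled.

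Control H3K27me3 peaks were merged, and the percentage of each region in peaks was computed per library. Differences were tested with limma 3.58.1 in R 4.3.3 over all regions with a peak in at least 2 libraries of the mark, all 4 genotypes in 1 fit, with Benjamini-Hochberg adjustment and a threshold of 0.05. The fit was tested on simulated data.

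The members, the 18 gene lists and the tests were chosen with earlier results of these data known. Named regions are, per comparison, up to 3 of the largest called differences in each direction, or the lowest p where none was called. Others are those with the most H3K27me3, with none outside control, with H2AK119ub in the most libraries, nearest the width limit, and the widest 2 per list, of which some are left out and 1 is not reported here. Itga1, Tfap2b, Scn8a, the second Tox2 region and the printed promoters were added after their values were seen. Gene positions, start sites and promoters come from RefSeq tables on GRCm38.p6, which list a start site for 79.9% of protein-coding genes and none for the 83 members on chromosome 18.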

Additional observations from a re-analysis of the deposited data

Results flagged for a closer look

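In Rassf5 the effect of the Asxl1 guide on H3K4me1 differed between cells with and without CSF3R T618I by the test of the interaction, but the region entered that test only through the control libraries. The interaction was 47.2 percentage points (SE 6.0; limma, adjusted p = 0.00184; 8.8% of all regions tested had an interaction above 0). H3K4me1 covered 0% of the region in both double, all 3 CSF3R and all 3 Asxl1 guide libraries and 55.6 and 38.9% in control libraries. The guide therefore went with a lower value in cells with the empty vector and with no difference in cells with the receptor, where coverage was already 0%, so that the interaction repeats the control value against a floor. The region lies on chromosome 1, and the part of that chromosome's shift was not tested.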

How the results depend on the processing

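For H3K27me3, members called between double and CSF3R libraries numbered 0, against 72 by any overlap, 118 without control libraries, 760 without these and Asxl1 guide replicate 2, and 0 to 343 with 1 library left out. Between double and Asxl1 guide libraries they numbered 0, against 44 by any overlap, 74 without the 3 libraries, and 0 in every fit with 1 library left out. For H2AK119ub the calls ran between 37 and 118 against CSF3R libraries and between 27 and 106 against Asxl1 guide libraries with 1 library left out, and numbered 22 against Asxl1 guide libraries with the covered-length covariate. Without chromosome 1, members called for H3K4me1 numbered 0 for Asxl1 guide against control, 1 for CSF3R against control, 0 for double against control and 0 for the interaction. With 1 library left out these ran between 0 and 1, 0 and 3, 0 and 2, and 0 and 2, and between 0 and 2 for double against CSF3R and against Asxl1 guide libraries, where Mpzl3 passed without a double library. Counting a member only where peaks cover at least 50% of it gave H3K27me3 in 30.3% in double, 79.4% in CSF3R and 81.7% in control libraries. The same count gave H2AK119ub in 11.3% in double, 4.55% in CSF3R and 4.98% in Asxl1 guide libraries, and H3K4me1 in 0.0555% in double, 0.0493% in CSF3R, 0% in Asxl1 guide and 0.0185% in control libraries. For members at least 1 kb from control H2AK119ub, H3K4me1 was found in 0.101% in CSF3R and 0.0758% in control libraries, and in control libraries in 0.122% without IgG overlap and 0.0786% without chromosome 1. The causes were not tested. The other 132 settings of counts of members stayed within 1.5 times, and 320 settings of named regions kept direction and side of the threshold, with 34 losing the call, 19 gaining it and none changing sign. With the replicate number as a block, H2AK119ub gave 48 members higher and 3 lower against CSF3R libraries. Against Asxl1 guide libraries it gave 41 higher and 1 lower, and H3K27me3 gave 0 and 0. These counts show how the calls moved and are no result about the members. Same-numbered libraries did not deviate together (r between -0.0763 and 0.0798 over 13 pairs for H3K27me3, between -0.0533 and 0.0532 for H2AK119ub and between -0.137 and 0.199 for H3K4me1), so same-numbered libraries were taken to share only a number. With 2 or 3 libraries a group and no depth, a missing peak may be a shallow library.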

Other observations

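Short regions that share H2AK119ub in control cells showed the same split by chromosome. On chromosome 1 H2AK119ub was found in 96.8 ± 2.4% of them in double libraries (SD, n = 2), 78.2 ± 9.3% in CSF3R libraries (SD, n = 3), 92.2 ± 3.0% in Asxl1 guide libraries (SD, n = 3) and 85.9 ± 2.1% in control libraries (SD, n = 2). On the other autosomes the shares were 79.2 ± 9.8%, 78.5 ± 6.8%, 71.3 ± 7.0% and 85.7 ± 0.5% in the same genotypes. The pooled IgG list held 10.2% of its covered length on chromosome 1, and the cause was not tested.

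Members also lay close together at other loci. Around Epn2, an endocytic epsin, and Grap, a Grb2-related adaptor, 11 members lay within 119.75 kb of chromosome 11, and 8 lay within 70.3 kb around Sez6, a neuronal seizure-related gene. Near En2, a homeobox gene of the midbrain and cerebellum, 8 lay within 166.6 kb of chromosome 5.

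A miRNA hairpin lay in 2 members. The one with Mir3067 had H3K27me3 in all 8 libraries outside control and H2AK119ub in 1, and the one with Mir7k had H3K27me3 in 2 and H2AK119ub in 0.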
